A study of Mus musculus with 8 samples.

Results

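The genes described here encode small leucine-rich proteoglycans (SLRPs), secreted matrix proteins whose core is a curved stack of leucine-rich repeats. They are Dcn, Bgn, Aspn, Fmod, Lum, Prelp, Omd, Ogn, Chad and Podn, and these 10 members were found by matching Ensembl gene identifiers to mouse symbols among the 54532 identifiers counted. The list was chosen with the TGF-β1 against vehicle results of these libraries known. What the members did in that contrast is therefore given as a description. Those that passed the filter on low counts entered the test run over all genes, but their calls are not read as evidence. Of the 10, 9 passed the filter on low counts, and Lum did not.

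Primary pericyte cultures from the brain of wild-type (WT) mice were treated with vehicle (4 cultures, replicates 1 to 4) or with TGF-β1 at 5 μg/mL (4 cultures, replicates 5 to 8) for 48 h, and total RNA was sequenced. Pericytes are the mural cells of capillaries, and the cytokine TGF-β1 drives matrix production in many stromal cells. The question behind the comparison was how TGF-β signalling changes gene expression in these cells. The dose is printed as labelled. It is far above the range commonly used for this cytokine, and its unit could not be checked from the data. The methods name adult male mice for the study as a whole, without tying them to the brains used here. They speak of 4 independent isolates given vehicle and TGF-β1, whereas the series describes 8 cultures. An isolate may therefore be present in both arms, but no label ties a vehicle culture to a TGF-β1 culture, so the groups were compared unpaired and n = 4 counts cultures.

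In tissue, SLRPs sit along collagen fibrils, set fibril width and spacing, and bind growth factors, TGF-β among them. The canonical classes differ in sequence and in the sugar chains they carry. Class I (Dcn, Bgn, Aspn) typically carries chondroitin or dermatan sulfate, with Aspn lacking such a chain. Keratan sulfate is carried by some, though not all, members of class II (Fmod, Lum, Prelp, Omd). Ogn belongs to class III, while Chad and Podn belong to the non-canonical classes. In the brain, SLRP transcripts are best known from fibroblasts of the meninges and of the perivascular space and from mural cells.

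The libraries held 45255235 to 47651397 counts assigned to genes, so that 3 counts corresponded to 0.0631 to 0.0657 CPM (counts per 1000000 counts of the library). Of the values from 1 to 20, 68.5% to 70.2% were even numbers in each library, so a count may not be an independent fragment. Smad7 and Skil, feedback inhibitors of the TGF-β pathway, rose by 0.60 and 0.97 on the log2 scale with TGF-β1, and Tgfbi fell by 1.5 (p-values from edgeR's quasi-likelihood test, adjusted by Benjamini and Hochberg, here and for every gene tested). Of 11 pericyte markers, 8 passed the count filter, and their summed level over all 11 was 573 to 591 CPM in vehicle and 746 to 774 CPM in TGF-β1 cultures. Pdgfrb, Cspg4 and Cd248 rose by 0.53, 1.03 and 0.20 on the log2 scale, Rgs5 fell from 8.61 ± 0.466 to 2.13 ± 0.245 CPM and Anpep fell by 0.43. The other 3 tested were not called. Notch3 was at 88.4 and 85.8 CPM, whereas Des, at 0.684 and 0.622 CPM, and Higd1b, at 0.278 and 0.276 CPM, were low in both groups. Kcnj8, Abcc9 and Vtn lay at or near 3 counts. Markers of other cells also had counts, and none was at 0 in every culture, but some had only a few. Olig2, for example, had 2 counts in vehicle replicate 1 and 0 in every other culture. Fibroblast markers summed to 306 to 317 CPM in vehicle and 275 to 295 CPM in TGF-β1 cultures, and endothelial markers to 470.3 to 483 and 472 to 497 CPM. The endothelial sum was mostly Cdh5 (375 CPM in vehicle) and Flt1 (81.6 CPM), whereas Pecam1 was at 1.11 CPM and Cldn5, Tie1, Erg and Emcn had vehicle means of 0.204 CPM or less. Astrocyte markers summed to 248 to 259.9 and 224 to 236 CPM, mostly Gja1 (195 CPM in vehicle), with Gfap at 0.878 CPM and Aqp4 at 0 counts in all vehicle cultures. Sums were lower for macrophage and microglial markers, at 8.52 to 9.26 and 9.93 to 11.5 CPM, and for oligodendrocyte lineage markers, at 4.12 to 5.48 and 5.33 to 6.04 CPM. The part of these other cells in the SLRP values was not tested.

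The promoters of the members that moved furthest are shown first, since the Aspn, Omd, Ogn and Prelp transcripts were all lower with TGF-β1 and the Bgn transcript was higher. Each holds 250 bases before and 50 after the annotated start, 5′ to 3′ on the strand of the gene, as given by RefSeq for GRCm38.p6. Capitals mark matches on either strand to CAGAC, the core of the Smad-binding element, or to TATAAA, the TATA box core. The windows are chr13:49544193-49544492 (+) for Aspn, chr13:49582212-49582511 (+) for Omd, chr13:49607765-49608064 (+) for Ogn, chr1:133921352-133921651 (-) for Prelp and chrX:73483351-73483650 (+) for Bgn.
Aspn: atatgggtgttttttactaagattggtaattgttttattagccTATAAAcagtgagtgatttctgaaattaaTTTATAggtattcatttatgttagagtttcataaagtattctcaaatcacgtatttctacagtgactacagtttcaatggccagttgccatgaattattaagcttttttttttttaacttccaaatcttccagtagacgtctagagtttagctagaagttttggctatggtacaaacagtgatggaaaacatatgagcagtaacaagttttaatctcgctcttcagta
Omd: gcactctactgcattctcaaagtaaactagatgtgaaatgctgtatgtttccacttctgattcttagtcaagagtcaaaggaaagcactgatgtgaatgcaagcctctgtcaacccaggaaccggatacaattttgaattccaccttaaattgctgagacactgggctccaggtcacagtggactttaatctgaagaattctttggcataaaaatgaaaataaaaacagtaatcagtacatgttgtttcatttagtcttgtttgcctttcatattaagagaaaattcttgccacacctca
Ogn: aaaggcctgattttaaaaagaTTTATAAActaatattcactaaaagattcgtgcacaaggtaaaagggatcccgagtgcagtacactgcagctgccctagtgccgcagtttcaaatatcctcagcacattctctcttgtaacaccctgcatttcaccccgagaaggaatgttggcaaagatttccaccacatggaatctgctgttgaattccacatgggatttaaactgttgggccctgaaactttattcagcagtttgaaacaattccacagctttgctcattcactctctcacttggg
Prelp: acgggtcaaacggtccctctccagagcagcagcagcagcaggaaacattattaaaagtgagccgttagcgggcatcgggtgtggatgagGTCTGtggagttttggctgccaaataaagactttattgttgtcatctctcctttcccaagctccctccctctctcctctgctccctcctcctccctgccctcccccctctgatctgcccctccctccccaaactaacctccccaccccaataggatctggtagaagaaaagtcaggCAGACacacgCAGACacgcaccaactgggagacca
Bgn: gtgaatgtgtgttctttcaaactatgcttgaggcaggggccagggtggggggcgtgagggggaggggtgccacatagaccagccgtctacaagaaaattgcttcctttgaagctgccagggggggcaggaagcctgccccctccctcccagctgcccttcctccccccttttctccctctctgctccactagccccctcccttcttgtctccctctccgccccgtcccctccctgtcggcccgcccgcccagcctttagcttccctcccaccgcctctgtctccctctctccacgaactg

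Of the 10 members, 8 had promoters in the RefSeq table, with 2 for Podn. CAGAC was found on either strand in 3 of these 8 members, against 49.6% of the 32851 promoters in the table. Prelp held 3 matches, 1 lying 161 bases before the start and the others 15 and 25 bases after it, Fmod held 2 and the second Podn promoter held 1. TATAAA was found in 3 members, against 13.6% of all promoters. In Chad the match lay 28 bases before the start, the usual place of a TATA box, whereas in Ogn (229 and 227 bases before, the 2 matches overlapping each other) and in Aspn (207 and 178 bases before) the matches lay far upstream. Neither the palindromic Smad site GTCTAGAC (0.213% of all promoters) nor the AP-1 site TGANTCA (7.81%) was found in any of the 8 members, which says only that these letters are not in these windows. Base composition varied widely, from 31.0% G and C in Aspn and 37.7% in Omd to 63.7% in Bgn and 77.0% in the first Podn promoter, with a median of 52.7% over all promoters.

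With TGF-β1 the Bgn transcript rose to a level far above every other member, while Prelp, Omd, Ogn and Aspn were each at least 3-fold lower and Dcn, Podn and Fmod were lower by smaller amounts. Of the 9 members tested, 8 were called at an adjusted p under 0.05, 1 higher and 7 lower. In the same test 41.3% of all 22544 genes tested were called, 20.9% as higher and 20.3% as lower. The cultures of the groups did not overlap for 8 of the 9, against 37.9% of all genes. The median log2 fold change of the 9 was -0.53, with a median size of 1.06, beside -0.01 and 0.18 over all genes tested. Since the members were chosen by this contrast, nothing further is read from these counts. These are bulk cultures, in which fewer cells of a type and less RNA per cell cannot be told apart.

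**Figure D1:**
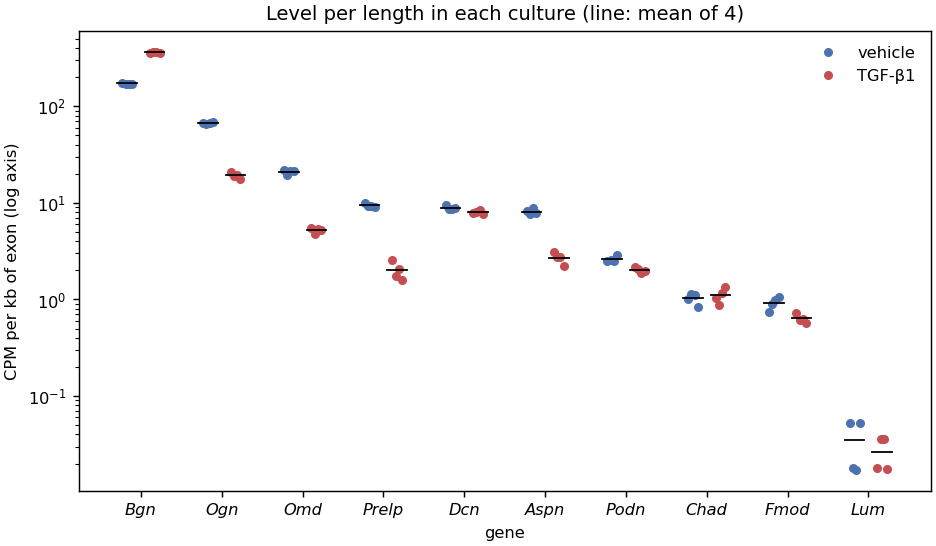
Level of each member in each culture, in CPM per kilobase (kb) of exon on a log axis. Vehicle cultures and TGF-β1 cultures are separate points, with a bar at each group mean (n = 4). Bgn has a mean of 173 CPM per kb in vehicle and 362 CPM per kb with TGF-β1, while Ogn, Omd, Prelp and Aspn drop and Chad overlaps between the groups.

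Among class I members, Bgn (biglycan, ENSMUSG00000031375, chrX:73483602-73495933, + strand, GRCm38) is a collagen-binding proteoglycan that, once released from the matrix, is also a ligand of Toll-like receptors. Its level was 1076, 1051, 1052 and 1051 CPM in the vehicle cultures and 2193, 2223, 2209.5 and 2194 CPM in the TGF-β1 cultures. Every TGF-β1 culture was above every vehicle culture, and the spread inside each group was small beside the gap. The means were 1058 ± 12.2 and 2205 ± 14 CPM (± SD, n = 4 each, as for every mean of CPM), a log2 fold change of 1.06 ± 0.02 (SE), or 2.08-fold higher. Per kilobase of merged exon length, Bgn moved from rank 102 to rank 22 among the 22544 genes tested.

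Dcn (decorin, ENSMUSG00000019929, chr10:97479609-97518143, + strand), the closest relative of Bgn, binds collagen and can hold TGF-β in the matrix. It was measured at 55.3, 50.3, 51 and 51.6 CPM in vehicle and at 45.8, 46.8, 48.8 and 45.1 CPM with TGF-β1. All TGF-β1 cultures were below all vehicle cultures, but the step was small, with a log2 fold change of -0.16 ± 0.04. The ratio of Bgn to Dcn, both per kilobase, moved from 19.4 ± 0.603 to 45.3 ± 1.4 (SD, n = 4).

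Aspn (asporin, ENSMUSG00000021388, chr13:49544443-49567565, + strand) carries a run of aspartate residues in place of a glycosaminoglycan site and binds TGF-β1. Its level was 19.2, 18, 20.8 and 18.5 CPM in vehicle and 7.26, 6.42, 6.5 and 5.29 CPM with TGF-β1. The groups were well separated, and Aspn was 3.01-fold lower with TGF-β1 (log2 fold change -1.59 ± 0.07). The class I members thus differed in direction, with Bgn higher and Aspn and Dcn lower.

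The largest decreases were in class II, in Prelp and Omd. Prelp (ENSMUSG00000041577, chr1:133910304-133921414, - strand) has a basic, heparin-binding amino terminus and anchors basement membranes to the collagen beneath. It was at 36, 33.9, 33.4 and 32.7 CPM in vehicle and at 9.35, 6.29, 7.5 and 5.72 CPM with TGF-β1, 4.71-fold lower (log2 fold change -2.24 ± 0.12). The groups lay far apart, and the TGF-β1 cultures varied more among themselves, with a coefficient of variation of 22.3% against 4.23% in vehicle. Replicate 5 was the highest of the 4 TGF-β1 cultures and replicate 8 the lowest.

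Omd (osteomodulin, ENSMUSG00000048368, chr13:49582462-49592822, + strand) is an acidic keratan sulfate proteoglycan best known from bone. Its level was 49, 44, 47.6 and 48.7 CPM in vehicle and 12.4, 10.6, 12 and 11.9 CPM with TGF-β1, 4.04-fold lower (log2 fold change -2.01 ± 0.05). The groups did not overlap. Of the 50-base words in its transcripts, 3.70% also occurred in transcripts of other genes, so a small part of its reads could have been lost or shared. Dcn, Ogn, Prelp, Aspn, Fmod and Chad shared none. Words were compared in the transcript orientation only, and exon overlaps with genes on the opposite strand are given below.

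Fmod (fibromodulin, ENSMUSG00000041559, chr1:134037254-134048277, + strand), which regulates collagen fibril assembly and cross-linking, was low throughout. It was at 2.47, 3, 3.28 and 3.48 CPM in vehicle and at 2.42, 2.05, 2.09 and 1.89 CPM with TGF-β1 (log2 fold change -0.53 ± 0.14). The groups touched but did not overlap, since the lowest vehicle culture and the highest TGF-β1 culture differed by little. Lum (lumican, ENSMUSG00000036446, chr10:97565128-97572703), a major SLRP of cornea and of fibroblasts, had only 2 to 6 counts in any culture, so no difference was detectable at this depth.

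Ogn (osteoglycin or mimecan, ENSMUSG00000021390, chr13:49608046-49624501, + strand) is the class III member and the most abundant SLRP after Bgn in vehicle cultures. It was at 172, 169.9, 174 and 175 CPM in vehicle and at 53.9, 48.3, 50.1 and 45.9 CPM with TGF-β1. The groups did not overlap, and Ogn was 3.49-fold lower with TGF-β1 (log2 fold change -1.80 ± 0.03). By level per kilobase it went from rank 490 to rank 2858 of the genes tested.

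The non-canonical members were low in both groups. Podn (podocan, ENSMUSG00000028600, chr4:108014791-108096445, - strand), a collagen-binding member first known from the kidney podocyte, was at 10.8, 11, 10.6 and 12.2 CPM in vehicle and at 9.16, 8.83, 7.96 and 8.42 CPM with TGF-β1. All TGF-β1 cultures were lower, with a log2 fold change of -0.38 ± 0.07. Chad (chondroadherin, ENSMUSG00000039084, chr11:94565047-94569127, + strand), a cartilage protein that binds integrin, had 1.69, 1.93, 1.87 and 1.41 CPM in vehicle and 1.74, 1.48, 1.96 and 2.25 CPM with TGF-β1. Its groups overlapped, with a log2 fold change of 0.11 ± 0.16, and it was the member tested without a call.

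**Figure D2:**
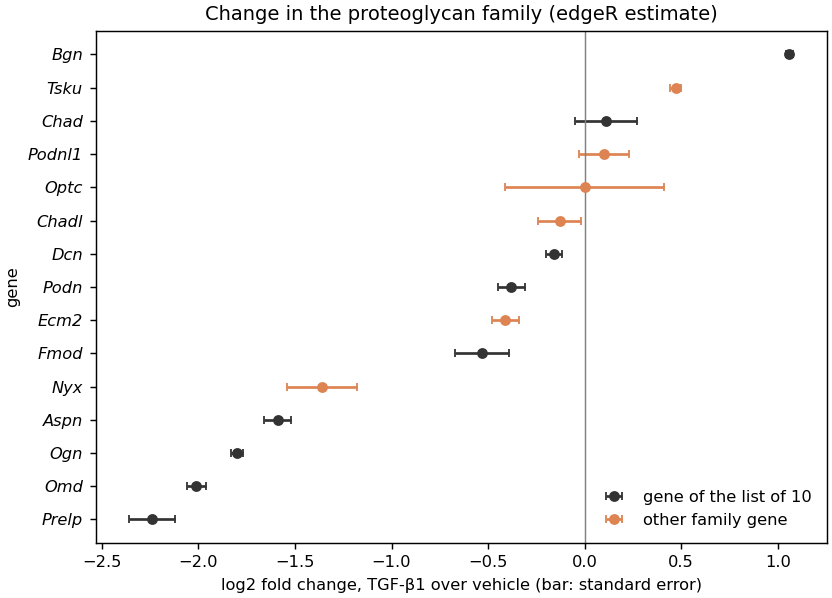
Log2 fold change, TGF-β1 minus vehicle, of the 9 members that passed the count filter and of the other tested SLRP family genes, with bars of 1 SE. Bgn stands at 1.06 to the right of 0, and Prelp at -2.24 lies furthest to the left.

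The increase of Bgn outweighed the decreases in the total. The 10 members held 0.140 ± 0.0025% of all counts in vehicle and 0.233 ± 0.000816% with TGF-β1 (SD, n = 4), 1.66 times as much. Bgn alone went from 0.106% to 0.220% of counts. The other 9 together went the opposite way, from 0.0343% to 0.0134%, 2.57-fold lower. Per kilobase the rise was smaller. The summed CPM per kilobase of the 10 genes was 293 ± 3.69 in vehicle and 402 ± 3 with TGF-β1, 1.37 times as much. Of that sum, Bgn made up 59.2% in vehicle and 89.8% with TGF-β1, and Ogn 23% and 4.80%.

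**Figure D3:**
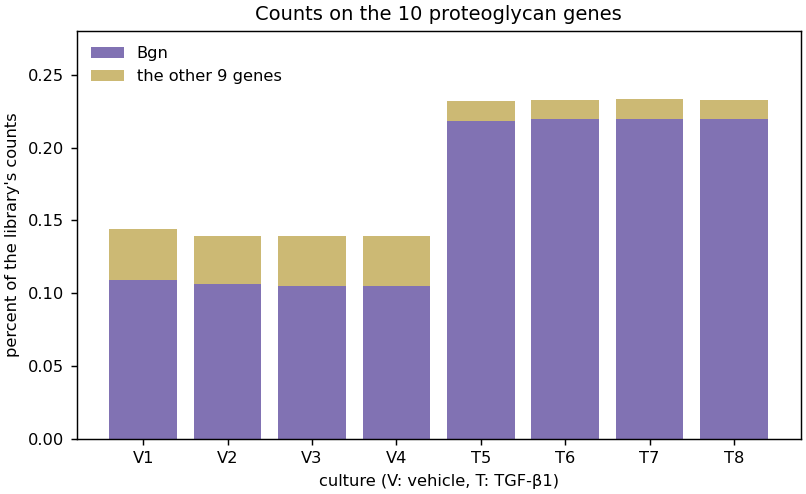
Percent of all counts of each library that fell on the 10 members, in each culture, with Bgn and the other 9 genes stacked. Bgn holds 0.106% of counts in the vehicle mean and 0.220% in the TGF-β1 mean. The part of the other 9 shrinks from 0.0343% to 0.0134%.

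The order of the levels per kilobase also shifted. In vehicle it ran from Bgn (173 CPM per kb) through Ogn (67.3), Omd (21.1), Prelp (9.40), Dcn (8.91), Aspn (8.13), Podn (2.61), Chad (1.03) and Fmod (0.925) to Lum. The ranges of neighbouring genes overlapped for Prelp and Dcn, for Dcn and Aspn, and for Chad and Fmod. With TGF-β1 it ran from Bgn (362 CPM per kb) through Ogn (19.3), Dcn (7.99), Omd (5.21), Aspn (2.7), Podn (2.01), Prelp (2.00), Chad (1.11) and Fmod (0.639) to Lum, and only Podn and Prelp overlapped among neighbours. Dcn thus passed Omd, and the mean of Prelp went from above to below those of Dcn, Aspn and Podn, although its range with TGF-β1 also overlapped that of Aspn.

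Several SLRP genes lie side by side in the genome. On chromosome 13, Ecm2, Aspn, Omd and Ogn lie in a row on the + strand within 119692 bases, separated by gaps of 11654, 14897 and 15224 bases. Aspn, Omd and Ogn together were at 239 ± 5.01 CPM in vehicle and 67.6 ± 4.53 CPM with TGF-β1. Ecm2, a matrix protein related to the SLRPs, was 12.6 ± 0.536 and 9.46 ± 1.23 CPM and fell by 0.41 on the log2 scale (adjusted p = 1.15e-05). The whole row lies within the span of Cenpp, a centromere protein gene on the opposite strand, which shares 7 exon bases with Aspn and none with Omd, Ogn or Ecm2. Cenpp was at 10.1 ± 0.64 and 8.68 ± 0.385 CPM, a log2 fold change of -0.22 ± 0.07 with adjusted p = 0.0118, which was 0.0794 without vehicle replicate 1.

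The chromosome 1 row holds Optc, Prelp and Fmod within 151079 bases, and Prelp and Fmod were both lower with TGF-β1 although by unequal amounts. Optc, opticin of the vitreous of the eye, lay 2305 bases from Prelp and was at 0.334 ± 0.186 and 0.334 ± 0.183 CPM. Prelp shares 350 exon bases (9.68% of its length) with the antisense transcript Gm15851, which was near 0 in every culture. Between Prelp and Fmod, the non-coding Gm1627 was at 0.733 ± 0.0132 and 0.591 ± 0.15 CPM (log2 fold change -0.31, adjusted p = 0.362) and the pseudogene Gm18970 was too low to test. On chromosome 10, Dcn, Lum, Kera and Epyc lie within 202846 bases, and of these Dcn alone was expressed above a few counts. Chad lies within the span of Acsf2 on the opposite strand (log2 fold change 0.09, adjusted p = 0.137, and 0.0194 without vehicle replicate 1). Podn overlaps the span of Scp2 on the same strand without shared exon bases (log2 fold change -0.09, adjusted p = 0.0186, but 0.198 without vehicle replicate 3 and 0.109 without TGF-β1 replicate 8). The small RNA genes Gm23354 and Mir6397, also within the span of Podn, were near 0.

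**Figure D4:**
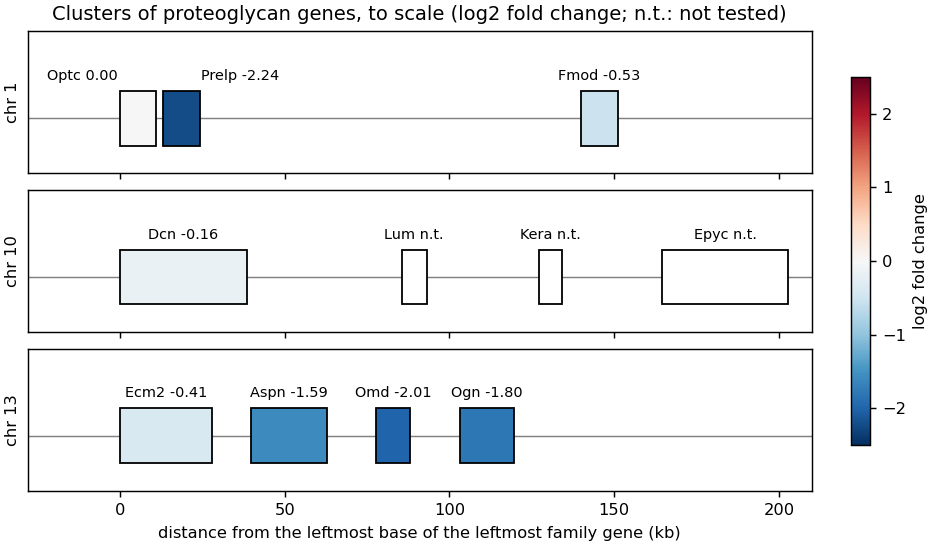
Positions of the SLRP genes in the rows on chromosomes 1, 10 and 13, as distance in kilobases from the first gene, with the log2 fold change of each gene that was tested. In the chromosome 13 row Aspn, Omd and Ogn all lie below -1.5 and Ecm2 at -0.41.

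Of 8 further family genes, 6 were tested and 3 were called, 1 higher and 2 lower. For this list and those below, the share called over all genes tested was 41.3%, with 20.9% higher and 20.3% lower. These lists were also chosen with earlier results of these data known, so their calls are given as a description. Tsku, a secreted modulator of BMP and Wnt signalling, was 121 ± 1.66 CPM in vehicle and 168 ± 5.47 CPM with TGF-β1, and it rose by 0.47 on the log2 scale (adjusted p = 1.52e-19). Nyx, nyctalopin of the retina, was 2.05 ± 0.244 and 0.796 ± 0.0286 CPM, and it fell by 1.36 (adjusted p = 2.21e-08). Ecm2, described above, was the other one that fell. Podnl1, the relative of podocan, had a log2 fold change of 0.10 (adjusted p = 0.568) and Chadl, the relative of chondroadherin, -0.13 (adjusted p = 0.351), so neither was called. Epyc of growth plate cartilage and Kera of the cornea had 2 to 6 counts per culture, as Lum did, and were not tested.

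The enzymes that build the sugar chains changed in mixed ways. Of 23 genes of chondroitin and dermatan sulfate synthesis, 22 were tested, 10 rose and 3 fell, with a median log2 fold change of 0.10 beside -0.01 over all genes. Chst11, a chondroitin sulfotransferase, rose from 55 ± 1.08 to 109 ± 7.58 CPM (log2 fold change 0.99, adjusted p = 8.77e-20), and Ust, the uronyl sulfotransferase, rose by 0.65 (adjusted p = 5.66e-14). Chsy3, a chondroitin synthase, fell by 0.95 (adjusted p = 4.19e-13). Of 12 keratan sulfate genes, 10 were tested, 5 rose and 1 fell, with a median of 0.15. The galactosyltransferases B4galt1 and B4galt2 rose by 0.68 and 0.40, and Chst1, which sulfates the galactose of keratan sulfate, by 0.35.

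The fibrillar collagens that SLRPs coat mostly rose. Of 9 listed and tested, 7 rose and 1 fell, with a median log2 fold change of 0.64. Col5a3 and Col5a2, chains of the collagen that starts new fibrils, went from 9.59 ± 0.563 to 56.8 ± 8.02 CPM and from 377 ± 13.1 to 994 ± 34.6 CPM, rises of 2.57 and 1.40 on the log2 scale (adjusted p = 1.7e-06 and 9.55e-34). Col11a1 rose by 1.5 (adjusted p = 2.84e-11). These ran with Bgn in direction and against the other members that were called.

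Of 18 growth factors, receptors and matrix partners that SLRPs bind, 9 rose and 7 fell, with a median of 0.08. Tgfb1 itself rose by 0.69, whereas Tgfb2 fell by 0.37 and Tgfb3 by 0.28 (adjusted p = 6.04e-25, 4.87e-11 and 1.54e-09). Fbn1, the fibrillin of microfibrils, rose from 171 ± 6.83 to 602 ± 19.7 CPM (1.81 on the log2 scale) and Eln, elastin, by 1.43 from a low level. Tnxb, a tenascin that links collagen fibrils through decorin, fell from 129 ± 8.64 to 33.2 ± 3.93 CPM (log2 fold change -1.96, adjusted p = 2.42e-06).

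Of 12 proteinases and cofactors that process or cleave SLRPs, 11 were tested, 7 rose and 3 fell, with a median of 0.87. The collagenase Mmp13 rose by 1.28, the stromelysin Mmp3 by 1.08 and the tolloid proteinase Tll1 by 0.96 on the log2 scale (adjusted p = 9.33e-19, 2.21e-29 and 5.64e-19). Bmp1, the tolloid relative that removes the propeptide of biglycan, was singled out after its values were seen. It went from 316 ± 3.34 to 609.7 ± 1.91 CPM (log2 fold change 0.95, adjusted p = 2.45e-33).

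**Figure D5:**
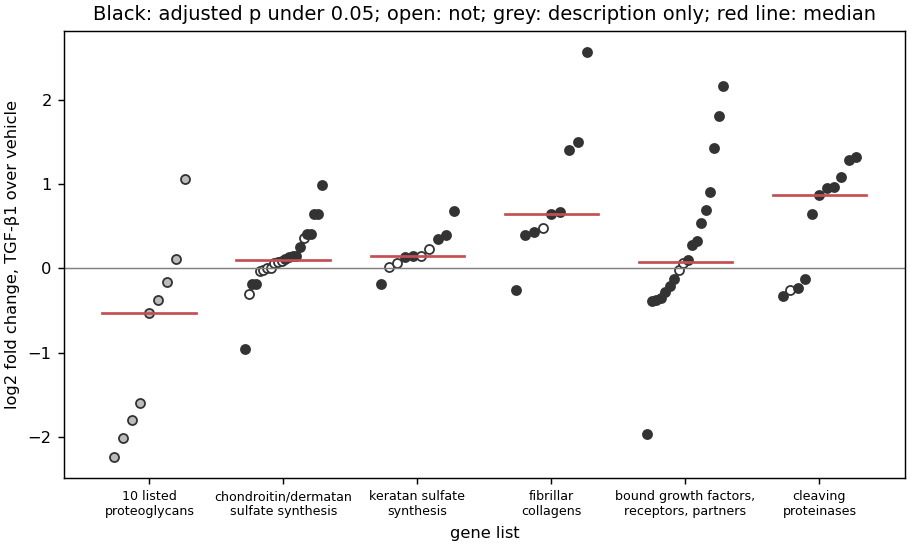
Log2 fold change, TGF-β1 minus vehicle, of each tested gene of the members and of the other lists, with the median of each list as a red line. Black points have an adjusted p under 0.05 and open points do not. The members are grey because their calls are not read as evidence. The other lists were also chosen with earlier results of these data known, so their calls are a description too. The collagen and proteinase medians lie at 0.64 and 0.87 and the member median at -0.53.

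Levels of fibroblast markers are given here because SLRPs are also fibroblast products, and these markers moved in both directions. Scara5 went from 68.8 to 5.52 CPM and Ptgds from 31.1 to 3.29 CPM, while Crabp2 went from 48.6 to 117 CPM and Pdgfra was 62.5 and 63.0 CPM. Mfap5 went from 0.323 to 1.45 CPM, and Islr was 96.7 and 95.1 CPM. Of the 11 fibroblast markers, 8 were tested, 2 rose and 3 fell, with a median log2 fold change of -0.01.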

How the data were processed

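Total RNA of 8 cultures was prepared with a stranded total RNA kit. The authors deposited 1 table per culture of raw read counts per Ensembl gene. Per the labels and the study's methods, the authors aligned reads to mm10 with STAR 2.7.5c in 2-pass mode, removed duplicates with SAMtools 1.15 and counted with featureCounts 2.0.3 (Subread). The strand setting of the counting is not given in the sources used here. Removing duplicates without molecular identifiers can lower the counts of abundant transcripts such as Bgn.

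Identifiers were paired with symbols for 54409 of 54532, and exon lengths were taken from GENCODE M21 (GRCm38). Genes passing filterByExpr (22544) were tested with edgeR 4.0.16 in R 4.3.3 (TMM, robust quasi-likelihood fit, treatment as the only term, Benjamini-Hochberg over all genes tested, threshold 0.05), and the scripts were tested on simulated data. CPM used TMM-scaled library totals. SE is the log2 fold change divided by the square root of F. Pairs of cultures of a group differed by 2.21 to 3.69 in chi-square per degree of freedom, where sampling noise alone gives 1, or 2 if every fragment were counted as 2. Each culture was counted as a replicate because the labels list it as a separate sample. P-values measure the spread between these cultures, which may be technical in part.

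The members and lists were chosen with earlier results of these data known. The text names all members and family genes, the 3 called genes of each other list with the largest change and a mean of at least 1 CPM, Tgfb1 to Tgfb3, the TGF-β check genes, and genes overlapping a member or lying between members of 1 row. One of the check genes is not reported here. Alternatives were DESeq2 1.42.0, other scalings, other filters and leaving out each culture. Promoters came from RefSeq (GRCm38.p6), and Dcn and Lum were not among those matched.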

Additional observations from a re-analysis of the deposited data

Results flagged for a closer look

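Among 86 groups of 4 cultures examined, 5 had a culture set apart from the other 3, where chance gives about 1 in 20 groups, or 4.3. Bgn was 1076 CPM in vehicle replicate 1, against 1052 CPM in the nearest of the other vehicle cultures, and the share of counts in the 10 SLRP genes was 0.144% in the same culture against 0.139%. Both gaps are small beside the difference from the TGF-β1 cultures. Chst11 was 97.7 CPM in TGF-β1 replicate 5 against 112 CPM in the nearest. Cenpp, the gene whose span covers Aspn, Omd and Ogn, was 8.11 CPM in TGF-β1 replicate 7 against 8.79 CPM. Scp2, which overlaps the span of Podn, was 71.3 CPM in vehicle replicate 3 against 65.9 CPM.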

How the results depend on the processing

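There were 14 alternatives (DESeq2, other scalings, other filters and leaving out each culture). In each, 8 of the 9 or 10 members tested were called, 1 higher and 7 lower. The number of genes called ranged from 8559 to 9311. It was 8913 of 44129 tested with at least 1 count in any culture. With at least 10 counts in every culture it was 8994 of 19993. Since the members were chosen by this contrast, their calls are a description here as well. Log2 fold changes ranged from 1.05 to 1.07 for Bgn, -2.39 to -2.13 for Prelp, -2.04 to -1.97 for Omd, -1.85 to -1.76 for Ogn, -1.66 to -1.5 for Aspn, -0.41 to -0.33 for Podn, -0.62 to -0.47 for Fmod, -0.19 to -0.12 for Dcn and 0.01 to 0.20 for Chad. Optc, at 5 to 26 counts and never called, changed sign, with -0.01 under library totals only, 0 under upper-quartile factors and with a filter of at least 1 count, and -0.34 to 0.38 on leaving out 1 culture, and the cause was not tested. Scp2 lost its call under DESeq2 (adjusted p = 0.0615). No paired analysis was possible because the groups share no replicate numbers. Depth limits Lum, Kera and Epyc, and leaves Chad and Fmod the least precise members tested.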
